A study of Mus musculus with 6 samples.

Results

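Arrdc2 and Arrdc3 are paralogous genes of the alpha-arrestin family, and their signals were read in tibialis anterior muscle of fasted and refed mice. Both were found by their symbols in the authors' deposited list of genes that differ between refed and fasted muscle, and each matched 1 of the 41345 features in the table of array values (Arrdc2 feature 17510200, RefSeq NM_027560; Arrdc3 feature 17288876, RefSeq NM_001042591). The headers of that list also name comparisons with 6 further arrays, which are not used here. The list has 470 entries, of which 134 carry a gene symbol, so all but these 134 features are unnamed here. Both genes were thus chosen by the authors' comparison of refed with fasted muscle, which includes these arrays, and that difference is given as a description, without a test of its own.

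The animals were male C57Bl/6 mice aged 18 weeks, with no transgene, mutation or drug named in the labels, and both groups went without food from 1800 hr onward. The next morning the refed group ate for 30 minutes while the fasted group was given nothing, and food was then withheld from both for 4 hr until the muscle was taken. Tibialis anterior is a fast muscle at the front of the lower leg. There were 3 fasted arrays (replicates 1, 3 and 5) and 3 refed arrays (replicates 7, 9 and 11), each from a piece of about 25 mg of frozen muscle, from which 300 ng of total RNA was labelled. Whether every array stands for a separate mouse is not in the labels, so the spread given here is that between arrays. None of the 10 genes listed as markers of muscle fibres has a named feature, so the tissue label could not be checked against them. In whole muscle, fewer cells of a type and less of a transcript per cell cannot be told apart.

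Alpha-arrestins carry the arrestin fold, and the tails of most of them hold PPXY motifs that bind the WW domains of ubiquitin ligases of the NEDD4 family. They thereby bring these ligases to receptors and transporters in the membrane, which are then internalised, recycled or degraded. ARRDC3 is known for its action on integrin beta-4, and mice that lack Arrdc3 are leaner and spend more energy than their littermates. ARRDC2 is less well described. TXNIP, which binds thioredoxin and limits glucose uptake, belongs to the same family. Skeletal muscle in the fasted state is exposed to high glucocorticoid and low insulin, and the FoxO factors that insulin restrains are then active.

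The promoters of both genes are shown because the signals of the pair followed each other closely over the arrays. RefSeq (GRCm38.p6) gives 1 window for Arrdc2 and 3 for Arrdc3, each from 250 bases before to 50 bases after a transcript start; capitals mark CCAAT or its reverse complement ATTGG. The Arrdc2 window is chr8:70839671-70839970 on the minus strand, and the Arrdc3 window of its most upstream start is chr13:80883134-80883433 on the plus strand.
Arrdc2: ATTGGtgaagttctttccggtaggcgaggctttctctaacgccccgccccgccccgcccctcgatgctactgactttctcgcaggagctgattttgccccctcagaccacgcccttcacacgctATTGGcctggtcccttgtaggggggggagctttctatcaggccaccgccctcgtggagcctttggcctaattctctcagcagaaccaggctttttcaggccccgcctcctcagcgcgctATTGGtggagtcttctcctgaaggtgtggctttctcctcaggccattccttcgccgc
Arrdc3: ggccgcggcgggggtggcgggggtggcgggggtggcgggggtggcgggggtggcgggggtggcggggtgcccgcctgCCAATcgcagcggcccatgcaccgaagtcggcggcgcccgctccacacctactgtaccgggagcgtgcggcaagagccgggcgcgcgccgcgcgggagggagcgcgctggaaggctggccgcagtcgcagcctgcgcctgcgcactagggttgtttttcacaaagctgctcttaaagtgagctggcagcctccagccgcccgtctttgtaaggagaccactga

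The Arrdc2 window holds CCAAT on either strand at 3 places, starting at -250, -126 and -7 bases from the transcript start (-1 being the base before it), and the printed Arrdc3 window at 1, at -173. The Arrdc3 window that overlaps the printed one holds the same match, and that of the downstream start holds 0. Of 32851 windows of this length, 37.4% hold CCAAT at least once and 3.37% at least 3 times. The GC box GGGCGG was found 4 times in the Arrdc2 window, 3 of these in a run where neighbours share 1 base, and 1 time in the Arrdc3 window. Of all windows 35.7% hold it at least 1 time, and how many hold it 4 times was not counted. GC content was 60% for Arrdc2 and 73% for Arrdc3, against a median of 52.7%.

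Letters of factors that sense hormones or nutrients were searched on both strands in all 4 windows. The core hexamer of the glucocorticoid receptor site, AGAACA, was found in 0 of the 4, and 19% of all windows hold it. The FoxO letters GTAAACA were found in 0 of the 4 (3.65% of all windows), and so was the E-box CACGTG, which MondoA and ChREBP sites contain (7.15%). The core TGACG of the cyclic AMP response element was found 1 time, in the window of a downstream start of Arrdc3 at chr13:80885845-80886144, and 20.8% of windows hold it. These matches say which letters stand in these windows, and sites farther from the start are not covered. Only these exact letters were searched, so variant forms of a site are not covered either.

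Both genes had lower signal in refed than in fasted muscle, by about the same amount. On a log2 scale, Arrdc2 read 9.77, 9.21 and 9.47 on fasted replicates 1, 3 and 5, and 8.48, 8.43 and 8.63 on refed replicates 7, 9 and 11. The groups did not overlap, as was so in this direction for 5.02% of all features. The lowest fasted array lay 0.58 above the highest refed one, more than the 0.56 by which the fasted arrays spread among themselves and the 0.21 of the refed arrays. The mean was 9.48 ± 0.28 in fasted and 8.51 ± 0.11 in refed muscle (SD, n = 3), which is a difference of -0.97 (SE 0.16, 95% interval -1.35 to -0.58), or 1.95-fold lower after the meal (1.49 to 2.56).

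Arrdc3 read 10.28, 9.88 and 9.90 on fasted replicates 1, 3 and 5, and 9.01, 9.05 and 9.29 on refed replicates 7, 9 and 11. Here too every refed array was below every fasted one, with a gap of 0.59 between the groups against a spread of 0.40 among the fasted and 0.28 among the refed arrays. The mean was 10.02 ± 0.23 in fasted and 9.12 ± 0.15 in refed muscle (SD, n = 3). The difference was -0.90 (SE 0.15, 95% interval -1.27 to -0.54), or 1.87-fold lower after the meal (1.45 to 2.40). SEs and intervals are those of limma, whose variance estimate draws on all features. The intervals of both genes take no account of their choice by this difference, which favours larger values.

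**Figure D1:**
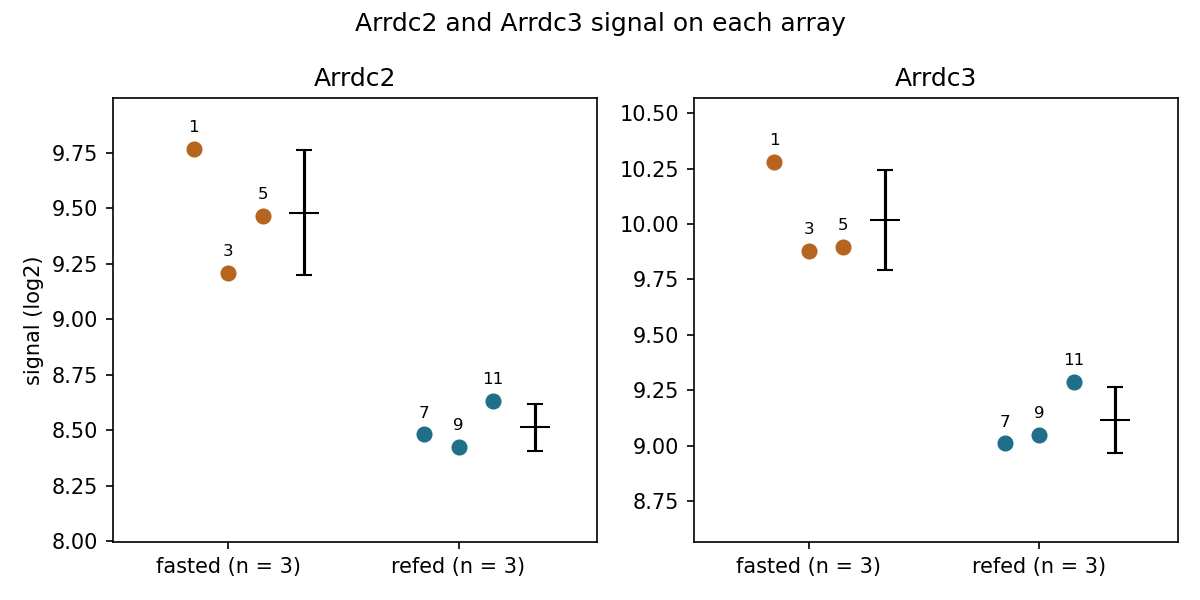
Log2 signal of Arrdc2 (left) and Arrdc3 (right) on each array, with the replicate number above each point and the mean ± SD of 3 arrays as a black bar. Each panel has its own axis of the same length, since levels of different features are not comparable. Refed arrays lie below all fasted arrays for both genes, and fasted replicate 1 is the highest array of each.

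Neither gene was called by the test across all features. By limma 0 of 41345 features (0%) had a Benjamini-Hochberg adjusted p under 0.05, and the adjusted p of Arrdc2 and of Arrdc3 was 0.801 (limma). At an unadjusted p under 0.05, limma found 1151 features (2.78%) lower and 858 (2.08%) higher in refed muscle, both genes being among the lower ones. A model without variance moderation also found 0 at the adjusted threshold, with 967 lower and 884 higher at the unadjusted one. Refed arrays lay below all fasted arrays for 2076 features, or 5.02% of the table. Those at least 1.5-fold lower and without overlap were 395, or 0.955%. Both genes are in these sets, and since the contrast chose them nothing further is read from that.

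The size of both differences moved most when fasted replicate 1, the brightest array of each gene, was left out, to -0.82 for Arrdc2 and -0.77 for Arrdc3. Without the lowest fasted array, replicate 3, they were -1.10 and -0.97.

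**Figure D2:**
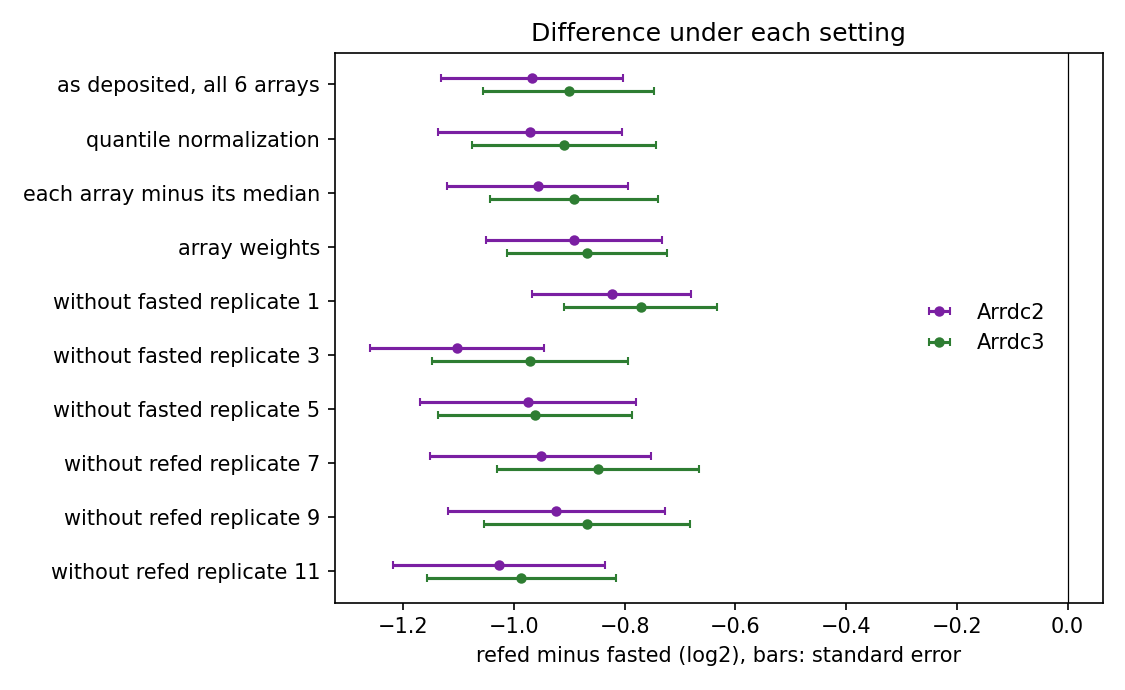
Refed minus fasted difference (log2) of Arrdc2 and Arrdc3, with standard errors, for the values as deposited, for 3 other scalings or weights, and with each array left out in turn. All points lie below 0, between -1.10 and -0.77.

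Both differences, by which the genes were chosen, were large beside those of features of like signal. Signal here is that of the array feature, on which its noise depends, and is not a level of transcript to be compared between genes. Among the 1111 features within 0.5 log2 units of the mean level of Arrdc3, the median size of the difference, whatever its sign, was 0.082, and 2 features had one at least as large as that of Arrdc3, 1 of them lower in refed muscle and unnamed. Among the 1550 features as near to Arrdc2, this median was 0.086 and 8 had a difference at least as large as that of Arrdc2. All 8 were lower in refed muscle, among them Pfkfb3, whose enzyme makes the fructose bisphosphate that switches on phosphofructokinase, and Depp1, a target of the FoxO factors. Of the 1430 features at least as bright as Arrdc3, 0 had a lower difference. Of the 2153 at least as bright as Arrdc2, 4 unnamed ones had a lower difference, between -2.26 and -2.00, and in each of these 4 the refed and fasted arrays overlapped. These places in the table are descriptions of a contrast that chose the genes.

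**Figure D3:**
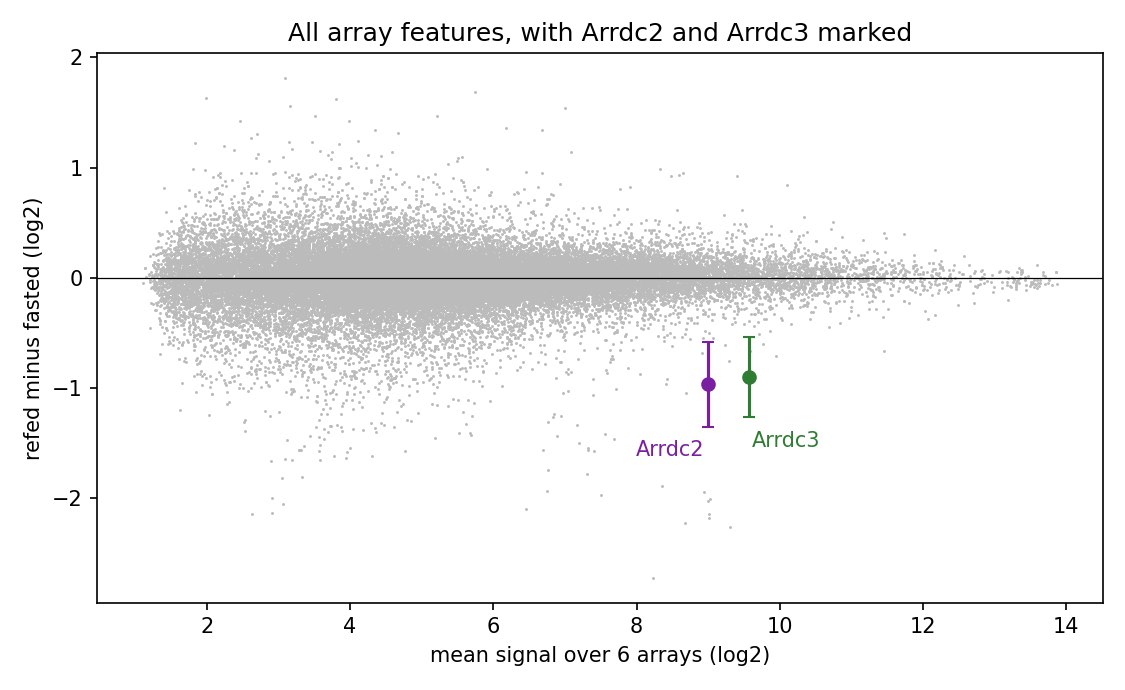
Refed minus fasted difference (log2) against mean signal over 6 arrays (log2) for all 41345 features in grey, with Arrdc2 and Arrdc3 as coloured points and 95% intervals. The cloud narrows toward bright signals, and both genes lie below nearly all features as bright, at -0.97 and -0.90. Both were chosen by this difference, so their place is a description only.

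The spread of both genes within groups was somewhat wide for their signal. The pooled SD within groups was 0.21 for Arrdc2, against a median of 0.16 over the 1550 features of like level, and 72.5% of those features had a smaller one. For Arrdc3 it was 0.19 against 0.16, and 64.9% of the 1111 features of like level had a smaller one. The spread of the pair was thus above, not below, that of most features as bright.

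The differences of the paralogs could not be told apart in size. The Arrdc2 difference minus the Arrdc3 difference was -0.066 on the log2 scale (SE 0.080), with a 95% interval from -0.29 to 0.16, which holds 0 and also holds differences between them of up to 0.29. They were also high and low on the same arrays. Fasted replicate 1 was the highest array for both, followed by fasted replicate 5 and fasted replicate 3, and refed replicate 11 was the highest of the refed arrays for both. Only refed replicates 7 and 9 changed places: replicate 9 was the lowest array for Arrdc2 and replicate 7 for Arrdc3. On 6 of 6 arrays the genes lay on the same side of their group means. Deviations within a group sum to 0, so these 6 matches are not independent. How many other features match either gene in this way was not counted. Fasted replicate 1 lay above the group means by 0.29 for Arrdc2 and 0.26 for Arrdc3, and fasted replicate 3 below them, at -0.27 and -0.14.

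**Figure D4:**
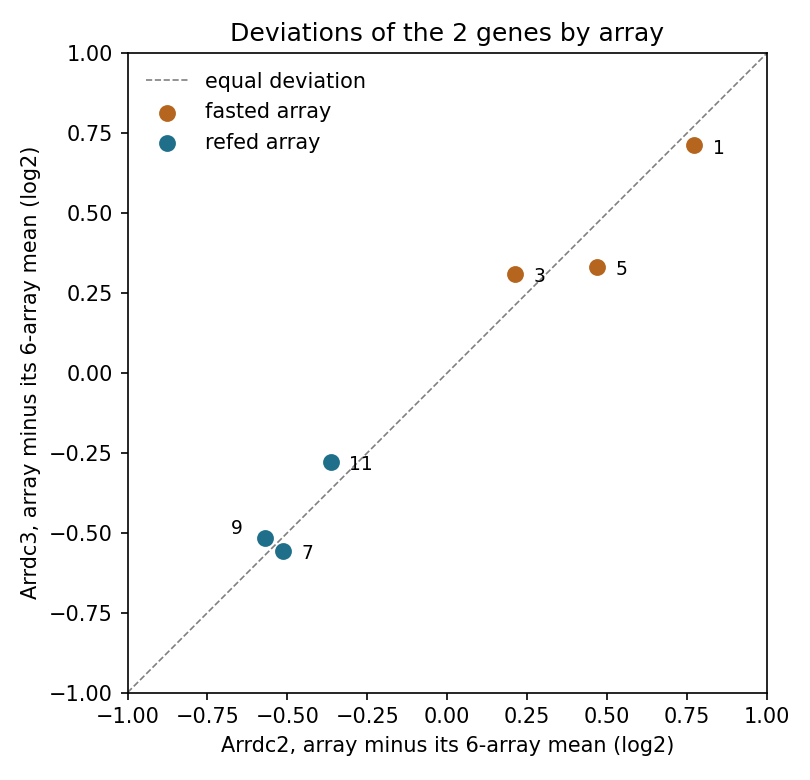
Deviation of Arrdc3 from its mean over 6 arrays (vertical axis, log2) against that of Arrdc2 (horizontal axis, log2), 1 point per array with its replicate number, and a dashed line of equal deviation. All arrays lie within 0.14 of the line, read along the vertical axis, the farthest being fasted replicate 5.

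Likeness of profiles was measured as the root mean square, over the 6 arrays, of the difference between signals that had each been centred on their own mean. Between Arrdc2 and Arrdc3 this distance was 0.086 log2 units. Of the other features in the table, 0 were closer to Arrdc2 than Arrdc3 was, and 0 were closer to Arrdc3 than Arrdc2 was. The median feature lay 0.55 from Arrdc2 and 0.51 from Arrdc3. Both genes were chosen for lower signal in refed muscle, which brings their profiles together and sets both apart from features without a difference. With the group means taken out, which leaves only the scatter of arrays inside a group, the distance was 0.080. The median feature then lay 0.24 from Arrdc2 and 0.22 from Arrdc3. By this measure 0.80% of features were closer to Arrdc2 and 1.20% closer to Arrdc3, and a feature that hardly varies within groups is also close. By the cosine between deviations from group means, which ignores their size, the pair had 0.888, and 2.13% of features had a higher one with Arrdc2 and 2.08% with Arrdc3. The first place also rested on having all arrays: with 1 array left out, between 0 and 8 features were closer to Arrdc2 and between 1 and 20 closer to Arrdc3, the highest counts being those without fasted replicate 1. The sequences of the array's probes are not used here, and whether probes of one paralog also bind the other's transcript was not tested.

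The named genes closest to the pair were led by Cebpd and Trim63. The candidates were 43 genes with a symbol in the authors' list, predicted, microRNA and receptor-cluster names being left out, and 25 of the 43 were lower in refed muscle. Cebpd, a C/EBP transcription factor that glucocorticoids induce, came nearest to Arrdc2, with a distance of 0.11, and next to nearest to Arrdc3, with 0.16. It read 7.72, 7.24 and 7.53 on the fasted and 6.55, 6.18 and 6.64 on the refed arrays, in order of replicate number. From the highest to the lowest, its 6 arrays stood in the same order as those of Arrdc2. Cebpd was picked for its closeness over these arrays, which favours a like order. Over the table, 1 feature, Arrdc3 itself, was closer to Arrdc2 than Cebpd, and 13 were closer to Arrdc3 than Cebpd.

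Trim63 codes for MuRF1, a ubiquitin ligase that marks proteins of the sarcomere for degradation. It was the nearest named gene to Arrdc3, with a distance of 0.14 and 6 features closer over the table, and the fourth nearest to Arrdc2, with 0.20 and 19 features closer. It read 12.03, 11.75 and 11.60 on the fasted and 11.11, 10.96 and 11.33 on the refed arrays. As for the pair, fasted replicate 1 was its highest array and refed replicate 11 the highest of its refed arrays. The choice of Trim63 for closeness favours this too.

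The other genes near the pair belong to immune and blood cells or had dim signals. Ms4a4a, a membrane protein of immune cells, lay 0.14 from Arrdc2 and 0.18 from Arrdc3, at 5.85 ± 0.34 in fasted and 5.07 ± 0.21 in refed muscle (SD, n = 3). Igkv4-56, a variable segment of the immunoglobulin kappa light chain, lay 0.20 and 0.17 away, and had a mean signal of 4.20 over the 6 arrays, below the median feature at 5.03. Calr4, a gene of the calreticulin family, lay 0.19 from Arrdc2 at a mean signal of 2.67. Ppbp, a chemokine of platelets, lay 0.19 from Arrdc3, at 7.01 ± 0.31 in fasted and 6.33 ± 0.20 in refed muscle. These 6 named genes and the pair had adjusted p values between 0.801 and 0.964 (limma), and none was called.

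**Figure D5:**
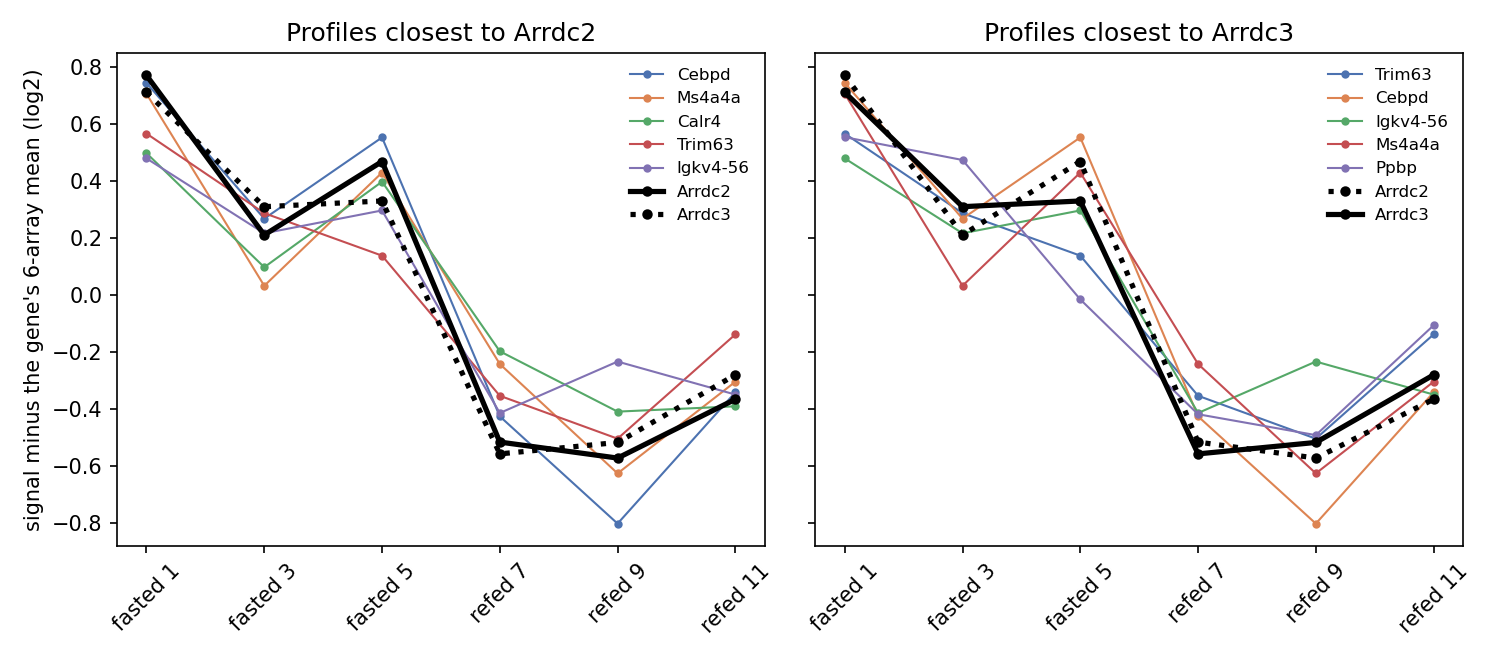
Signal of each gene minus its own mean over 6 arrays (log2) on fasted replicates 1, 3 and 5 and refed replicates 7, 9 and 11, for the 5 named genes closest to Arrdc2 (left) and to Arrdc3 (right). Thick black lines are the pair, solid for the gene in the panel's title. Lines join the values of a gene and imply no order of arrays.

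Several genes known to respond to glucocorticoids or FoxO factors had lower signal in refed muscle, as the pair did. Of 19 such genes 7 have a named feature, and since names come only from that list, the other 12 are not analysed here. All 7 were lower in refed muscle, as were 84 of the 134 features with a symbol, and 0 of 7 passed the test. Their median difference was -0.92, between -1.95 for Depp1 and -0.66 for Trim63, where the median of all features was 0.00052. At -0.97 and -0.90, Arrdc2 and Arrdc3 lie close to the median of these 7. The list was written with earlier results of these arrays known, and its members entered through a list made on them. Neither their shared direction nor the size of their differences, beside all features or the pair, is therefore independent evidence. The other members with values between those of Depp1 and Trim63 include Cebpd (-1.04), Angptl4 (-0.84), an inhibitor of lipoprotein lipase, and Gabarapl1 (-0.71), an autophagosome protein. Ddit4, an inhibitor of mTORC1, had a larger difference than the pair, -1.57, at 8.87, 7.71 and 7.99 on the fasted and 6.57, 6.24 and 7.05 on the refed arrays. Gadd45g, a stress-response gene, had a difference close to that of Arrdc3, -0.92, but its groups touched, with 0.0023 between the lowest fasted and the highest refed array, against 0.59 for Arrdc3.

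The highest arrays of the pair were shared by most of this group, and the lowest arrays in part. These genes entered through a list made on these arrays, and Cebpd and Trim63 among them were also picked above for closeness to the pair. Genes that vary together are not separate draws, so the counts below are a description and not independent evidence. Fasted replicate 1 had the highest fasted value for 6 of the 7 genes (Gabarapl1 was the other), and refed replicate 11 had the highest refed value for 5 of the 7. Over all features the corresponding shares were 35.4% and 34.2%. Fasted replicate 3, the lowest fasted array of Arrdc2 and Arrdc3, was the lowest for 3 of the 7, and replicate 5 for the other 4. Over all features these shares were 27.6% and 37.1%. Refed replicate 9, the lowest of Arrdc2, was the lowest refed array for 5 of the 7, and replicate 7, the lowest of Arrdc3, for 1. Their shares over all features were 32.1% and 33.6%. The medians of the 6 arrays lay between 5.02 and 5.06, and the part of other properties of these arrays in that order was not tested.

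Of the other alpha-arrestins, Arrdc1, Arrdc4, Arrdc5 and Txnip have no named feature and are not analysed here. The same holds for the 9 PPXY-binding ubiquitin ligases set down as partners (Nedd4, Itch and Wwp1 among them), the 8 receptors and transporters (Slc2a4 among them) and the 9 upstream factors (Nr3c1, Foxo1 and Mlxip among them).

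Of 14 red cell markers, 2 have a named feature, and 0 of 2 passed the test. Alas2, the erythroid enzyme of haem synthesis, had a difference of -0.85 (adjusted p = 0.964, limma), and the beta globin Hbb-bt one of -0.77 (adjusted p = 0.993, limma), with 0.00087 between its lowest fasted and its highest refed array. The mean signal of both lay between 6.70 and 7.61 on the fasted and between 5.91 and 6.63 on the refed arrays. Alas2 read 7.54, 7.93 and 7.04 on fasted replicates 1, 3 and 5, so its highest fasted array, replicate 3, was the lowest fasted array of both Arrdc2 and Arrdc3. In refed muscle replicate 11 was the highest array of Alas2, Arrdc2 and Arrdc3 alike. None of the 7 adipocyte, 5 endothelial or 5 macrophage markers has a named feature. The part of blood or other cells in the lower signal of the pair was not tested.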

How the data were processed

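The authors deposited 1 table of processed values for 41345 features on 6 biotin-labelled whole-transcript arrays. The deposited values are on a log2 scale, which the values themselves settle: the highest is 13.9, which as a natural log would be 1102620, above the 65535 that a 16-bit scanner can read. Partek is the tool that the submitters' processing notes list, without its version. How background was corrected, probes summarised and arrays normalized, and on which build, is not given in the sources used here. Control features carry no mark and were not left out. Features that share all 6 values with another feature, 1395 in number, were also kept and enter all counts over the table.

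Of the authors' deposited list only the identifier and symbol columns were read. RefSeq accessions updated 3 of 134 symbols. The 2 groups were set against each other in limma 3.58.1 (R 4.3.3, lmFit, then eBayes, without covariate or filter), with Benjamini-Hochberg adjustment over all features. The fit was tested on simulated data with noise independent between features, which does not cover effects that features of an array share. Precision is limited by having 6 arrays: the median 95% interval reached 0.37 log2 units to either side. The rule for named genes took the 5 closest named profiles for each gene and all members of the fixed lists that have a named feature. Alternatives covered scaling, array weights, a filter on dim features, the variance prior and leaving out each array. The members, lists and motifs were chosen with earlier results of these data known. Python 3.11.15 with matplotlib 3.10.9 drew the figures.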

Additional observations from a re-analysis of the deposited data

How the results depend on the processing

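The differences of Arrdc2 and Arrdc3 stayed below 0 under quantile normalization (-0.97 and -0.91), median centring (-0.96 and -0.89), array weights (-0.89 and -0.87) and without any 1 array (-1.10 to -0.82 and -0.99 to -0.77). Where groups do not overlap, leaving out or weighting arrays cannot turn a difference, and with 3 arrays a group leaving out 1 can move it by only part of the SD, so this is no test. The smallest differences were those without fasted replicate 1. The Arrdc2 difference minus the Arrdc3 difference lay between -0.13 and -0.013. Limma called 0 features at the adjusted threshold in all 12 alternatives, which also covered a filter on dim features, no moderation and a trend with a robust prior; the smallest adjusted p was 0.420. The medians and shares of closer profiles within groups, the cosines and the counts of closer profiles without each array were added after the data were seen. Averaging the features of a gene was not run, since each gene of the pair has 1 named feature. No paired analysis was possible because no replicate number occurs in both groups.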
